A study of Homo sapiens with 8 samples.

Results

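The COPII coat was followed in A549 cells through 10 genes that encode its parts, namely SAR1A, SEC23A, SEC23B, SEC24A, SEC24B, SEC24C, SEC24D, SEC13, SEC31A and SEC31B, out of 60624 genes counted and 18661 tested. The set was chosen by the measured rise of SEC31B after indisulam, so that every value of indisulam against untreated cells is a description of these 10 genes and carries no test. A549 is an established lung adenocarcinoma line, indisulam is a sulfonamide that leads to loss of the splicing factor RBM39, and SPHINX31 is an inhibitor of the splicing factor kinase SRPK1. The 4 groups were untreated cells, cells given indisulam, cells given SPHINX31 and cells given both (the combination), all of the same line and with 2 technical replicates each. By the methods of the study, treatment of A549 lasted 24 h, with SPHINX31 at 5 μM and indisulam at 0.5 μM. The labels give 2 μM indisulam and 18 h for all libraries, also the untreated ones. In the methods, that dose and time belong to a separate experiment in Panc10.05 cells. The values below cannot tell labels and methods apart. Since replicates were technical, p-values measure the spread between libraries and not that between independent treatments.

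COPII coats bud vesicles that carry newly made proteins from the endoplasmic reticulum towards the Golgi. The small GTPase SAR1, once loaded with GTP by PREB, enters the membrane and recruits the inner coat, in which SEC23 activates the GTPase and SEC24 binds cargo. SEC13 and SEC31 then form the outer cage, and most of these subunits exist as paralogs (SAR1A and SAR1B, SEC23A and SEC23B, SEC24A to SEC24D, SEC31A and SEC31B) that share a role but not always their cargo or tissue range.

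SEC31B lies on the minus strand at chr10:100486646-100519864 (GRCh38, GENCODE release 44) and SEC31A, its paralog, on the minus strand at chr4:82818509-82901166. The bases just upstream of a start site of each gene, in no annotated exon, are shown because the outer cage paralogs had such different responses. They were taken from the RefSeq promoter table (GRCh38.p14) and cover chr10:100519865-100520111 for SEC31B and chr4:82891267-82891530 for SEC31A, both read 5′ to 3′ on the minus strand, with capitals marking CCACG on either strand (CGTGG on the opposite one).
SEC31B: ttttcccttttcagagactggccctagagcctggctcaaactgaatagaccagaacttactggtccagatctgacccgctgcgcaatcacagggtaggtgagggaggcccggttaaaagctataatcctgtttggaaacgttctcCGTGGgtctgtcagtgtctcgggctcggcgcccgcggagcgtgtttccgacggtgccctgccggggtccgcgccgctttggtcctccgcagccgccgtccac
SEC31A: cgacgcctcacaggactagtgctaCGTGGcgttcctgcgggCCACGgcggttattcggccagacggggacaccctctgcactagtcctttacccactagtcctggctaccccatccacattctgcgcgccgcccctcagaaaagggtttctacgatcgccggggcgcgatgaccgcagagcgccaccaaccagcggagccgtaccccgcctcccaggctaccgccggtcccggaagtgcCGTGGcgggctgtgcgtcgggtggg
CCACG is a part of the endoplasmic reticulum stress element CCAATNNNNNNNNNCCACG, which ATF6 and XBP1 are known to bind. The stretch of SEC31B held 1 CCACG and that of SEC31A held 3, but the exon-free bases at the other SEC31A start sites held at most 1. Whole windows, which also hold exon bases, had 1 CCACG for SEC31B and 2 to 4 for the start sites of SEC31A. CCACG alone occurred in 38.1% of all 35116 whole promoter windows in the table, which are longer than the stretches shown. The whole element was found in 0.0769% of all windows and in none of the 14 windows of the 9 members that the table holds, and these letters say nothing of whether a factor binds. TGACGTG, a word related to the unfolded protein response element, was in a window of SEC13, SEC23A and SEC24A and in 1.97% of all windows, both strands searched. SEC24D had no entry in the table.

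The libraries held between 51727369 and 63186989 counts on genes, 83.0% to 86.0% of the reads recorded. Levels are given as CPM, the counts of a gene scaled to a common library size by the trimmed mean of M-values (TMM) method, and levels of different genes were compared as CPM per kb of merged exons. The epithelial keratins KRT8 and KRT18 lay between 3378 and 4103 CPM, and the leukocyte genes CD3E and PTPRC reached at most 0.0524 CPM. Of the other epithelial genes, KRT7 had 1158 to 1869 CPM, CDH1 70.5 to 106 and EPCAM 25.4 to 33.6. The fibroblast gene COL1A1 had 3.23 to 4.65 CPM and the endothelial gene PECAM1 1.45 to 2.36. The other markers of leukocytes (CD79A), endothelium (CDH5) and fibroblasts (PDGFRB and LUM) reached at most 0.297 CPM. In bulk RNA, fewer cells that express a gene and less RNA per cell cannot be told apart.

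All 10 members passed the filter on low counts. In untreated cells the mean levels per kb were, from highest to lowest, 32.8 CPM per kb for SEC24C, 29.3 for SEC13, 24.8 for SEC23A, 24.7 for SEC23B, 14.8 for SAR1A, 13.8 for SEC31A, 9.44 for SEC24B, 6.25 for SEC24A, 5.82 for SEC24D and 1.62 for SEC31B. No neighbours in that order overlapped between their 2 libraries, and in SPHINX31-treated cells SEC23B and SEC23A did. With the longest transcript as the length, SEC31B was again the lowest in untreated cells at 2.52 CPM per kb, but other places changed. SEC13 was then the highest at 66.3, and SEC24D, at 14.4, lay above SEC24A and SEC24B at 7.13 and 9.69. SEC23A, at 51.0, lay above SEC24C and SEC23B at 37.6 and 31.0, and SEC31A, at 29.8, above SAR1A at 17.1. In indisulam-treated and combination-treated cells SEC24D took the lowest place on the merged exon scale, at 3.69 and 3.46 CPM per kb, and SEC31B stood above it at 4.92 and 4.96. On the longest-transcript scale SEC31B had the lowest group mean of the members in both, at 7.68 and 7.74 CPM per kb. SEC24D had means of 9.10 and 8.55 there. The 2 combination libraries differed, with 9.02 and 6.47 CPM per kb for SEC31B. The first lay above the combination means of SEC24D and of SEC24A (8.16), so the lowest place there rests on the mean.

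SEC31B, one of the outer cage subunits, was the member with the widest range. It had 12.4 and 13.2 CPM in untreated cells and 42.3 and 35.8 CPM with indisulam, and both indisulam libraries were above both untreated ones. It had 8.47 and 10.1 CPM with SPHINX31 and 45.9 and 32.9 CPM with the combination. The order of the group means was the combination (39.4 ± 9.17 CPM, SD, n = 2), indisulam (39.1 ± 4.61), untreated (12.8 ± 0.558) and SPHINX31 (9.26 ± 1.12), in which the highest neighbours overlapped and the others did not. The raw counts behind these levels were 459 to 789 without indisulam and 1825 to 2622 with it.

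**Figure D1:**
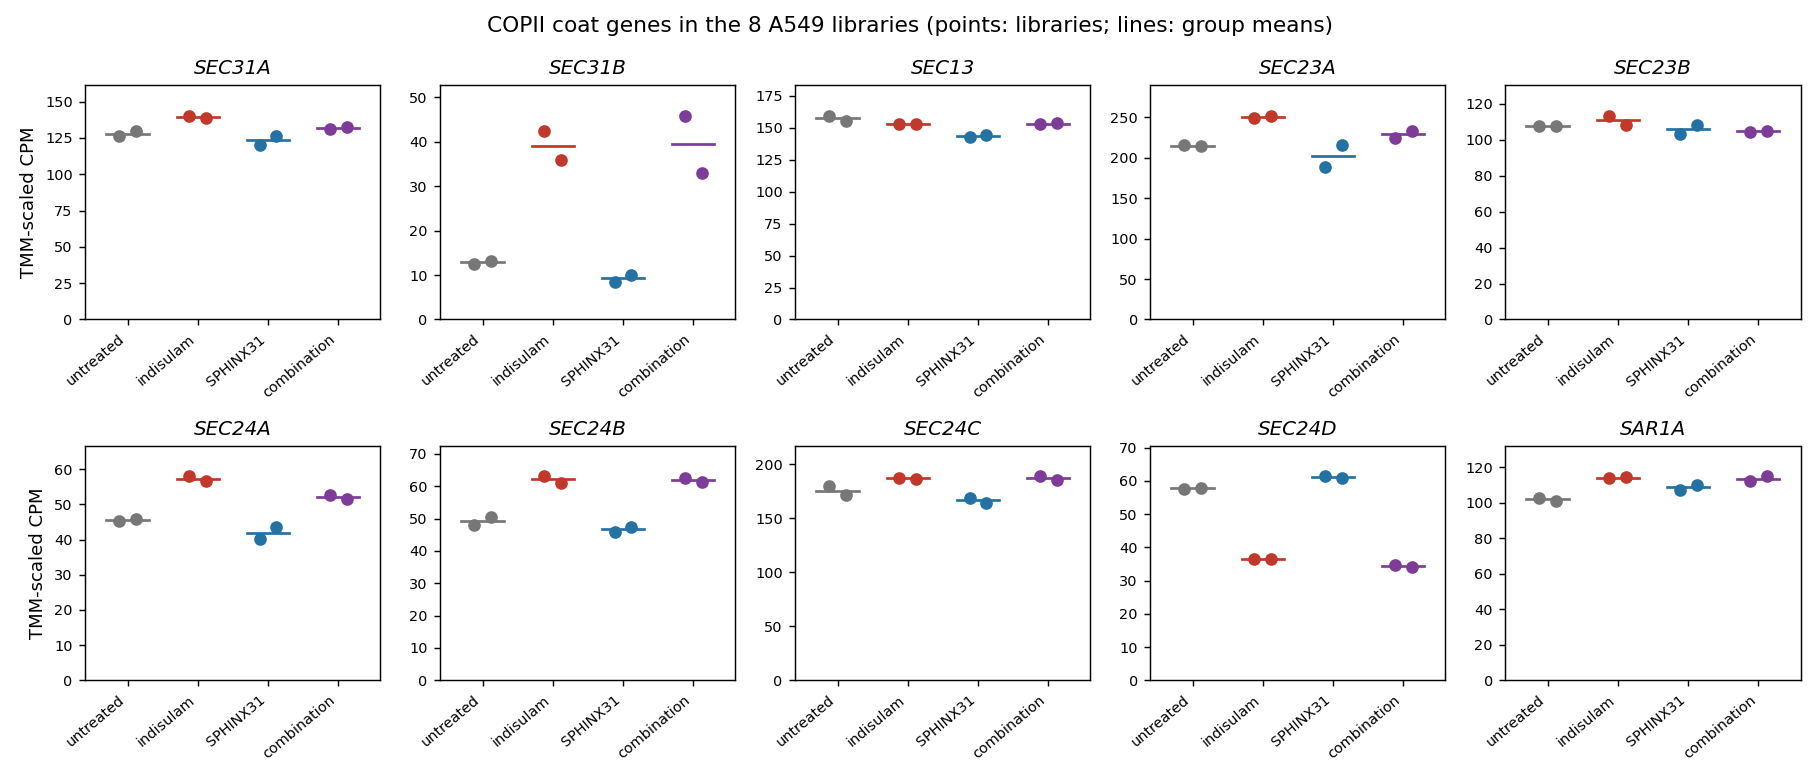
CPM of each member in the 8 libraries, with points for libraries and lines for group means, 1 panel per gene and CPM on a linear axis. SEC31B reaches 32.9 to 45.9 CPM in the 4 libraries with indisulam and 8.47 to 13.2 CPM in the other 4, and SEC24D shows the opposite order.

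Against untreated cells SEC31B differed by a log2 fold change of 1.61 (SE 0.135) with indisulam, 3.05-fold, and lay at the 98.9th percentile of all tested genes, which is how the gene came to be chosen. Combination against SPHINX31 asks the same of indisulam in cells that also had the kinase inhibitor, and it shares no library with indisulam against untreated. In this second comparison SEC31B rose by 2.09 (SE 0.140), 4.25-fold (edgeR quasi-likelihood fit, adjusted p = 7.78e-08 by the Benjamini-Hochberg procedure over all tested genes). The members were chosen with earlier results of these data known, and all 8 libraries shared 1 fit. This p-value is therefore not independent of the choice. Both combination libraries were far above both SPHINX31 libraries, and the log2 fold change was between 1.84 and 2.31 when any 1 library was left out.

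In cells without indisulam, both SPHINX31 libraries were below both untreated ones for SEC31B, with a log2 fold change of -0.47 (SE 0.148). That difference did not pass the threshold of 0.05 (edgeR adjusted p = 0.0676), shares its untreated libraries with the contrast that chose the gene, and passed in 7 of 18 alternatives, among them GC offsets and the fits without either indisulam or either combination library. Combination against indisulam, which shares the indisulam libraries with that contrast, gave 0.01 (SE 0.125, edgeR adjusted p = 0.975), and the value ran from -0.24 to 0.23 when 1 library was left out. There the libraries of the groups overlapped.

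The share of reads outside annotated features moved with SEC31B. It was 3.94% and 4.34% in untreated cells, 5.48% and 4.49% with indisulam, 3.67% and 3.93% with SPHINX31, and 5.87% and 4.87% with the combination. In all 4 groups the library with the larger share also had the larger SEC31B level, an order that 2009 of the 18661 tested genes (10.8%) shared. SEC24A and SEC24B had it in 4 of 4 groups as well, SEC31A and SEC24D in 3, SEC23B and SEC24C in 2, and SEC13, SEC23A and SAR1A in 1. The part of these reads in the result was not tested.

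**Figure D2:**
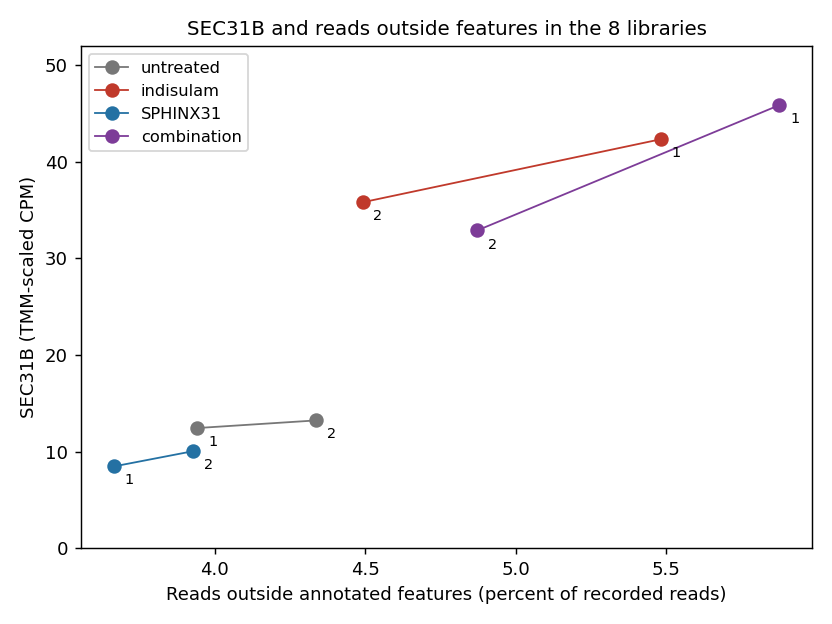
SEC31B level in CPM against the percent of reads outside annotated features, 1 point per library, coloured by group. Within each group the library further to the right is also the higher one, from 3.67% and 8.47 CPM at the lowest to 5.87% and 45.9 CPM at the highest.

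The annotation gives SEC31B 13 transcripts, of which 1 is protein-coding, 5 are targets of nonsense-mediated decay and 5 retain an intron. The decay class made up 38.5% of its transcripts, a share that 4.40% of the 14010 tested coding genes reached. Gene counts do not separate these transcripts, so which of them rose is not known from these values. An unnamed read-through gene (ENSG00000255339) covers 18.5% of the exon bases of SEC31B on the same strand, and it was listed at 0 counts in all 8 libraries. Ambiguous reads were left out of the counts, so the 0 does not show that this gene was silent. Reads on the shared bases may also be missing from SEC31B, which would lower its level per kb and its share.

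SEC31A, the widely expressed paralog of SEC31B, had 126 and 130 CPM in untreated cells and 140 and 139 CPM with indisulam. It had 120 and 126 CPM with SPHINX31 and 131 and 132 CPM with the combination, so that in each pair the libraries with indisulam were the higher ones. The log2 fold change was 0.12 (SE 0.0482) with indisulam, described only, and 0.10 (SE 0.0483) for combination against SPHINX31, which did not pass (edgeR adjusted p = 0.118). THAP9-AS1, annotated as a long non-coding RNA, covers 5.18% of the exon bases of SEC31A on the same strand and had 1060 to 1610 counts.

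SEC31B accounted for 10.3% and 10.7% of the 2 SEC31 genes' summed level per kb in untreated cells and 26.1% and 23.2% with indisulam. It made up 7.63% and 8.53% with SPHINX31 and 29.1% and 22.6% with the combination. With the longest transcript as the length, the shares were lower throughout, 5.62% to 7.95% without indisulam and 17.4% to 22.8% with it. On both scales the 4 libraries with indisulam lay above the other 4.

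**Figure D3:**
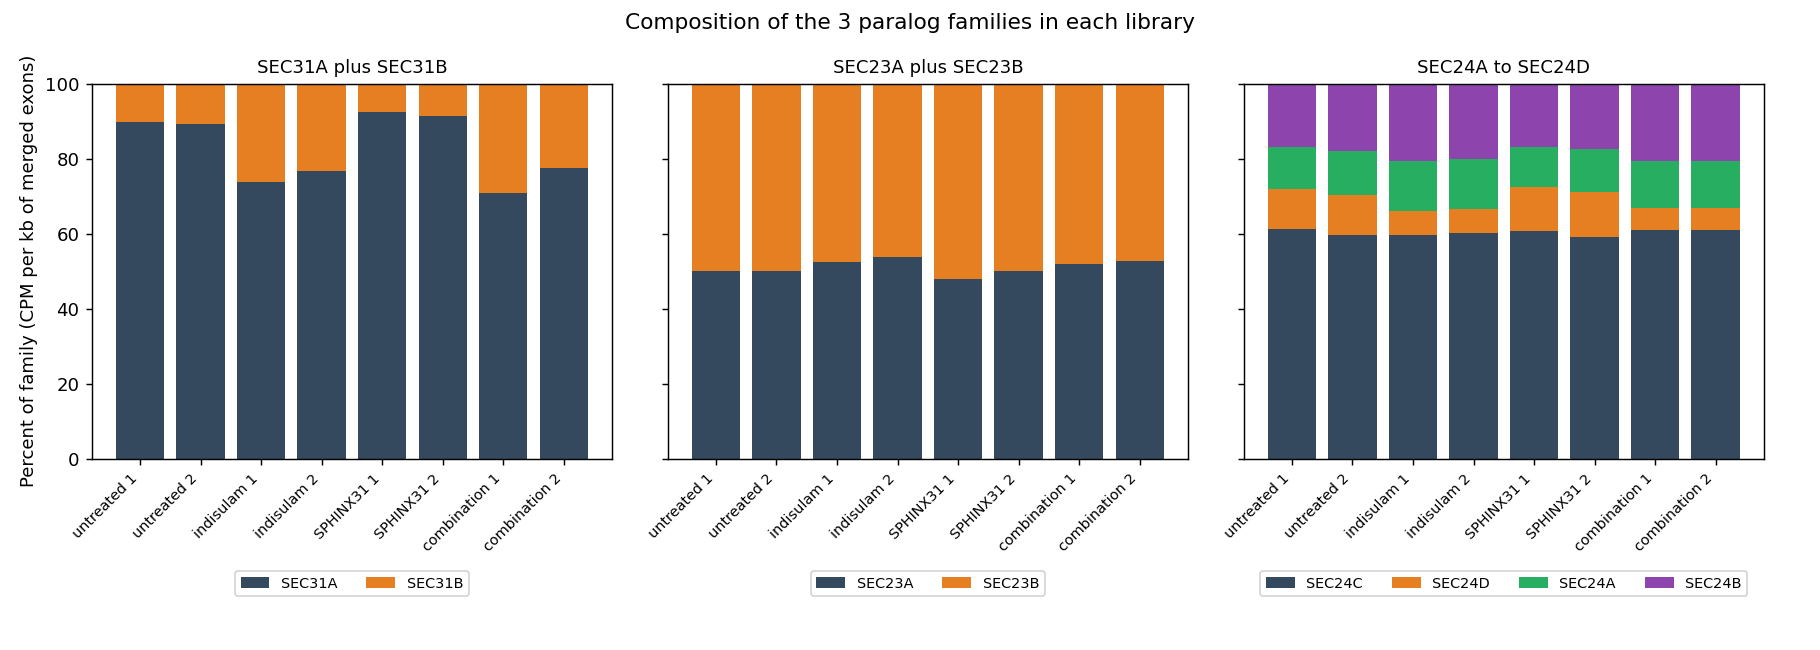
Percent of each paralog family's summed level (CPM per kb of merged exons) taken by each gene, 1 stacked bar per library. SEC31B widens from 10.3% and 10.7% in untreated cells to 26.1% and 23.2% with indisulam, and SEC24D narrows from 10.6% and 10.8% to 6.27% and 6.35%.

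SEC13 (chr3:10293131-10321112, minus strand), the other outer cage subunit and also a part of the nuclear pore, had 160 and 155 CPM in untreated cells, 153 and 153 CPM with indisulam, 143 and 145 CPM with SPHINX31 and 153 and 154 CPM with the combination. The untreated libraries were the highest and the SPHINX31 libraries the lowest. Its log2 fold change was -0.13 (SE 0.0459) for SPHINX31 against untreated (edgeR adjusted p = 0.0932) and 0.09 (SE 0.0460) for combination against SPHINX31 (edgeR adjusted p = 0.104), neither past the threshold.

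SEC24D (chr4:118722823-118838683, minus strand), one of the cargo-binding subunits, was lower with indisulam. It had 57.5 and 57.9 CPM in untreated cells and 36.6 and 36.6 CPM with indisulam, a log2 difference of -0.66 (SE 0.0521), given without a test. It had 61.4 and 61.0 CPM with SPHINX31 and 34.7 and 34.0 CPM with the combination, with no overlap between the groups. Combination against SPHINX31 fell by 0.83 on the log2 scale (SE 0.0522, 0.562-fold, edgeR adjusted p = 4.15e-08), and by 0.82 to 0.84 when 1 library was left out.

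SEC24A and SEC24B, which form a pair of closely related cargo adaptors, were higher with indisulam. SEC24B (chr4:109433772-109540896, plus strand) had 48.1 and 50.4 CPM in untreated cells, 63.1 and 61.1 CPM with indisulam, 45.9 and 47.5 CPM with SPHINX31 and 62.6 and 61.4 CPM with the combination. It rose by 0.41 (SE 0.0540) for combination against SPHINX31 (edgeR adjusted p = 3.53e-05), and the value of indisulam against untreated was 0.33. The libraries with indisulam did not overlap those without it.
SEC24A had 45.3 and 45.9 CPM in untreated cells, 58.0 and 56.6 CPM with indisulam, 40.1 and 43.6 CPM with SPHINX31 and 52.7 and 51.6 CPM with the combination. It rose by 0.32 (SE 0.0570) for combination against SPHINX31 (edgeR adjusted p = 4.46e-04), with 0.33 for indisulam against untreated. The lowest libraries were those with SPHINX31 alone. SEC24A at chr5:134648785-134727909 runs away from SAR1B and shares 389 exon bases with it on opposite strands, and the strand setting of the counting is not given in the sources used here.

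SEC24C (chr10:73744372-73772161, plus strand), the partner of SEC24D in the other SEC24 pair, had 180 and 172 CPM in untreated cells, 188 and 187 CPM with indisulam, 169 and 165 CPM with SPHINX31 and 189 and 185 CPM with the combination. It rose by 0.17 (SE 0.0475) for combination against SPHINX31 (edgeR adjusted p = 0.00997), and the value for indisulam against untreated was 0.09. An opposite-strand gene (ENSG00000279689) covers 42.8% of the exon bases of SEC24C, so the unknown strand setting bears on its level too. Among the SEC24 genes per kb, SEC24D took 10.6% to 11.9% without indisulam and 6.03% to 6.35% with it, SEC24B 16.8% to 17.9% and 20.2% to 20.7%, SEC24A 10.6% to 11.7% and 12.4% to 13.5%, and SEC24C between 59.2% and 61.3% in all libraries. With the longest transcript as the length, SEC24D took 20.6% to 22.9% without indisulam and 12.4% to 13.0% with it, SEC24B 13.5% to 14.5% and 17.2% to 17.7%, SEC24A 9.42% to 10.5% and 11.8% to 12.8%, and SEC24C between 53.0% and 58.1%. On both scales the shares of SEC24D, SEC24B and SEC24A did not overlap between libraries with and without indisulam. The share of SEC24C overlapped on the merged exon scale. With the longest transcript as the length it did not, at 53.0% to 55.5% without indisulam and 56.8% to 58.1% with it.

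SEC23A (chr14:39031919-39109646, minus strand), which with SEC23B forms the GTPase-activating part of the inner coat, had 215 and 215 CPM in untreated cells, 249 and 252 CPM with indisulam, 188 and 216 CPM with SPHINX31 and 225 and 233 CPM with the combination. The SPHINX31 libraries were far apart and overlapped the untreated ones. SEC23A rose by 0.18 (SE 0.0592) for combination against SPHINX31 (edgeR adjusted p = 0.0217), but the call was lost without combination replicate 2 and without SPHINX31 replicate 1, with values from 0.10 to 0.29 when 1 library was left out. Its value for indisulam against untreated was 0.22.
SEC23B (chr20:18507520-18561415, plus strand) had 108 and 108 CPM in untreated cells, 113 and 108 CPM with indisulam, 103 and 108 CPM with SPHINX31 and 105 and 105 CPM with the combination. Its log2 fold changes were 0.04 for indisulam against untreated and -0.01 (SE 0.0497) for combination against SPHINX31, which did not pass (edgeR adjusted p = 0.828).

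SAR1A (chr10:70147289-70170523, minus strand), the GTPase that starts assembly, had 103 and 101 CPM in untreated cells, 114 and 114 CPM with indisulam, 107 and 110 CPM with SPHINX31 and 112 and 115 CPM with the combination. It differed by 0.16 with indisulam and by 0.06 (SE 0.0474) for combination against SPHINX31, which did not pass (edgeR adjusted p = 0.285). Its paralog SAR1B, which is not among the 10 genes, had 50.1 and 52.1 CPM in untreated cells and 62.7 and 61.9 CPM with indisulam. SAR1B rose by 0.29 with indisulam (edgeR adjusted p = 6.28e-04) and by 0.26 for combination against SPHINX31 (edgeR adjusted p = 0.00120).

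Counted over the 10 members, combination against SPHINX31 called 5 higher (SEC31B, SEC24B, SEC24A, SEC23A and SEC24C), 1 lower (SEC24D) and 4 in neither direction with edgeR, and 6 in all with DESeq2. Among all tested genes 23.4% were called higher and 26.5% lower in that comparison, and the median log2 fold change was 0.13 over the members and 0.00 over all genes. SEC31B, whose rise with indisulam chose the set, is among the members called higher, so their number is not free of that choice. For indisulam against untreated, which the choice of the set used, 8 members had positive and 2 (SEC24D and SEC13) negative values with a median of 0.14. Of all tested genes, 49.6% had a positive value in that comparison, and 20.1% were called higher and 23.5% lower.

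**Figure D4:**
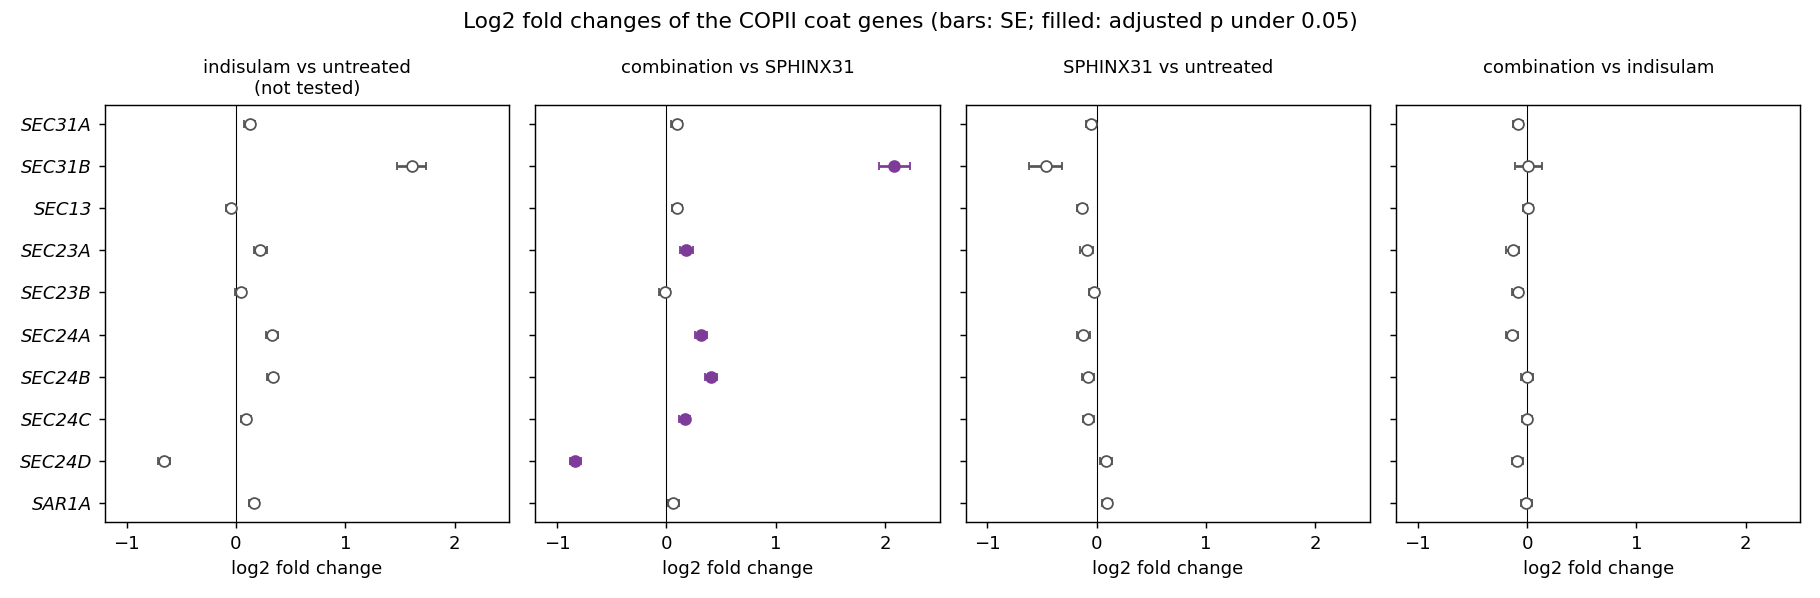
Log2 fold change of each member in the 4 comparisons, with bars for the standard error; filled points passed an adjusted p of 0.05 and the panel of indisulam against untreated was not tested. SEC31B stands at 1.61 and 2.09 and SEC24D at -0.66 and -0.83 in the comparisons of indisulam, and no member passed in the comparisons of SPHINX31.

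SPHINX31 itself called none of the members with edgeR, either alone or on top of indisulam. Against untreated, 2 of 10 had an unadjusted p under 0.05 (SEC31B and SEC13, both lower), as had 24.1% of all tested genes, and DESeq2 called 0. At the adjusted threshold 4.94% of all tested genes were called higher and 3.67% lower, and the members' median was -0.08. On top of indisulam, 2 of 10 had an unadjusted p under 0.05 (SEC24A, at a log2 fold change of -0.14, and SEC23A, at -0.13), as had 22.2% of all tested genes, and DESeq2 called 0. At the adjusted threshold 3.17% of all tested genes were called higher and 4.32% lower, and the members' median was -0.04. The call for SEC23A in SPHINX31 against untreated (-0.09, edgeR adjusted p = 0.386) was gained without SPHINX31 replicate 2, at -0.19.

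The difference between the indisulam effects with and without SPHINX31 was 0.48 (SE 0.194) for SEC31B on the log2 scale, 0.14 (SE 0.0650) for SEC13 and -0.17 (SE 0.0736) for SEC24D. These were the largest absolute values among the members, and the others ran from -0.10 for SAR1A to 0.08 for SEC24C. Among all tested genes, SEC31B, SEC13 and SEC24D lay at the 91.7th, 74.8th and 17.3rd percentile of this difference. The difference is a description, since it contains the contrast that chose the set. Without combination replicate 1 the value for SEC31B was 0.23 and without combination replicate 2 it was 0.70.

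The other genes of the pathway moved in both directions. Of 30 COPII accessory genes (exit site, cargo receptor, tether and fusion genes), indisulam against untreated called 9 higher and 8 lower with a median of 0.05. Combination against SPHINX31 called 7 higher and 12 lower with a median of 0.02. Over all tested genes the median of both was 0.00, and the shares called were 20.1% higher and 23.5% lower, and 23.4% higher and 26.5% lower.
STX5, the Golgi SNARE with which these vesicles fuse, fell by 1.10 with indisulam (edgeR adjusted p = 1.14e-07) and by 1.25 for combination against SPHINX31 (edgeR adjusted p = 2.39e-08). It had 34.7 and 36.4 CPM in untreated cells and 16.5 and 16.7 CPM with indisulam. MCFD2, the cofactor of the cargo receptor LMAN1, fell by 0.59 and 0.73, and SEC16A, the scaffold of exit sites, by 0.57 and 0.65. MIA2, which helps export large cargo, fell by 0.49 and 0.82, and ERGIC2, a cargo receptor, rose by 0.40 and 0.31. GOSR2, another SNARE, rose by 0.34 with indisulam, and its value for combination against SPHINX31 was 0.16 (edgeR adjusted p = 0.0505).
SEC16B, the smaller SEC16 paralog, rose by 1.22 and 1.96 (edgeR adjusted p = 0.0203 and 7.46e-04), but on only 6 to 34 counts per library, and the read-through gene CRYZL2P-SEC16B shares 58.7% of its exon bases on the same strand. With SPHINX31 alone 1 of the 30 accessory genes passed, MIA2 at 0.24 (edgeR adjusted p = 0.0102), and on top of indisulam 2 did, SEC16A at -0.24 (edgeR adjusted p = 0.0139) and ERGIC2 at -0.21 (edgeR adjusted p = 0.0256). These counts stand against 4.94% higher and 3.67% lower of all tested genes with SPHINX31 alone, and 3.17% and 4.32% on top of indisulam.

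COPI coats carry cargo back from the Golgi. Of 10 COPI genes, indisulam against untreated called 2 higher and 3 lower and combination against SPHINX31 called 2 higher and 4 lower, with medians of -0.07 and -0.09, against 20.1% higher and 23.5% lower and 23.4% higher and 26.5% lower of all tested genes. COPZ2 fell by 0.89 and 1.04, COPA by 0.64 and 0.67 and COPB2 by 0.40 and 0.41, whereas COPG2 rose by 0.29 and 0.30 and COPB1 by 0.17 and 0.20. MRPS22 covers 34.1% of the exon bases of COPB2 on the opposite strand, and the strand setting of the counting is not known.

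**Figure D5:**
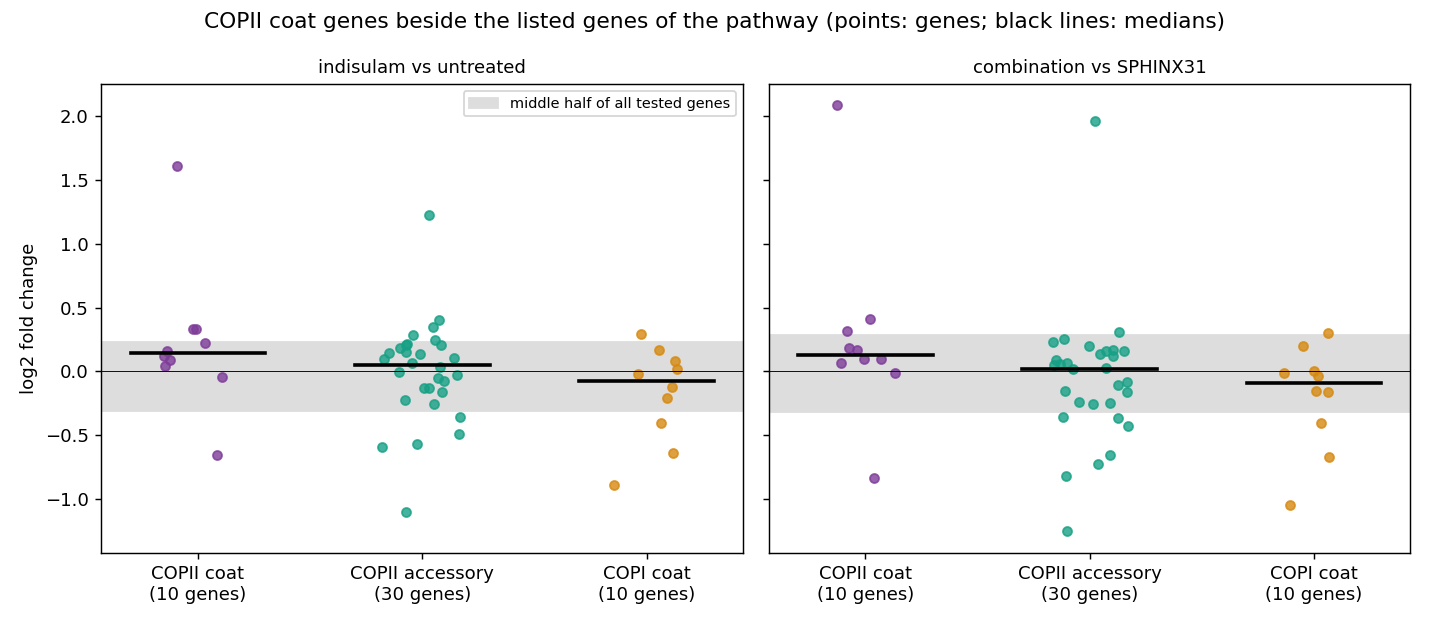
Log2 fold change of the COPII coat members, the 30 accessory genes and the 10 COPI genes, 1 point per gene, for the comparisons of indisulam, with black lines for medians and a grey band from the lower to the upper quartile of all tested genes. The lists spread to both sides of 0, with SEC31B at 1.61 and 2.09 and STX5 at -1.10 and -1.25 near the ends.

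Over the 8 libraries, the genes with the pattern most like SEC31B among 9979 compared were AMH, SDHAP4 and ENSG00000255031, with a root mean square difference in centred log2 CPM of 0.13, 0.18 and 0.22. AMH, which encodes anti-Müllerian hormone, had 6.49 and 6.09 CPM in untreated cells, 18.6 and 19.5 CPM with indisulam, 4.82 and 5.59 CPM with SPHINX31 and 22.3 and 15.4 CPM with the combination. SDHAP4 is a pseudogene of SDHA, so that its reads may be split with near-identical copies. The other members lay further off, from 0.76 for SEC24B to 1.31 for SEC24D.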

How the data were processed

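Polyadenylated RNA of A549 cells was sequenced by the authors in 8 stranded libraries. The deposited values are raw counts of reads per gene, which the authors made on GRCh38 (the submitters' processing notes name HISAT2 2.2.1 and HTSeq, and the annotation release and strand setting are not given in the sources used here). Gene names, lengths and overlaps came from GENCODE release 44, which matched 99.6% of the gene IDs. Reads outside features, ambiguous or not unique, 14.0% to 17.0% of those recorded, were left out of library sizes.

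Counts were analysed with edgeR 4.0.16 in R 4.3.3: filterByExpr, TMM (factors 0.978 to 1.02), a quasi-likelihood fit of all 8 libraries (residual degrees of freedom 4), and Benjamini-Hochberg adjustment over 18661 genes with a threshold of 0.05. DESeq2 1.42.0, other scalings, filters, GC offsets, a replicate block and leaving out each library were alternatives. The procedure was tested on simulated data. Depth was 51727369 to 63186989 counts on genes.

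The members and lists were chosen with earlier results of these data known. Named were all 10 members, SAR1B, up to 3 genes per direction, comparison and list with the largest change past the threshold, same-strand overlapping genes of members, and the 3 genes of average log2 CPM of at least 3 most like SEC31B. A gene named in 1 comparison is also given in the other. Protein sequences were not used here.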

Additional observations from a re-analysis of the deposited data

Results flagged for a closer look

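SEC13 had a log2 fold change of -0.0431 for indisulam against untreated and of 0.0945 for combination against SPHINX31. In each comparison the libraries did not overlap and the directions were opposite, and the difference between them was not tested. The first value was smaller than its SE of 0.0459, and the second did not pass (edgeR adjusted p = 0.104). SEC24D had 0.0842 for SPHINX31 against untreated and -0.0894 for combination against indisulam, again in opposite directions without overlap and with the difference not tested. Neither value of SEC24D passed (edgeR adjusted p = 0.341 and 0.360). How often groups of 2 libraries do not overlap over all tested genes was not counted. Reads outside annotated features, which enter no comparison, made up at least 4.49% of the reads in the indisulam libraries and at least 4.87% in the combination libraries, above the highest untreated library at 4.34%.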

How the results depend on the processing

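Of 540 values of the members in the tested comparisons under the alternatives, 523 kept their side of the threshold, 15 gained a call and 2, both of SEC23A, lost it. All 180 values of indisulam against untreated kept their direction. The members called for SPHINX31 against untreated were 1 with all genes of at least 1 count, 1 with the 2 groups alone, 2 with GC offsets, 1 with a replicate block whose indisulam numbers were exchanged, and 0 to 1 when a library was left out. Over all genes, the calls for that comparison were 2631 with GC offsets, 2630 with the exchanged block and from 482 to 1810 without 1 library, against 1606, with the fewest without untreated replicate 1 (482), untreated replicate 2 (539) and SPHINX31 replicate 1 (697). For combination against indisulam they were 2305, 2252 and from 440 to 1612, against 1399, with the fewest without combination replicate 2 (440), combination replicate 1 (609) and indisulam replicate 1 (696). Scaling by library totals alone made 72.3% of the SPHINX31 calls higher in place of 57.3%, and 65.4% in place of 42.3% for combination against indisulam. SEC13 gained a call for combination against SPHINX31 under GC offsets and library totals, and SEC31A under GC offsets, with or without the replicate block, and without SPHINX31 replicate 2. The interaction of SEC31B ran from 0.23 to 0.70 and that of SEC23A from -0.13 to 0.07 without 1 library. Per-length levels moved in 59 of 80 cases. The cause of these differences was not tested.

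The deviations of same-numbered libraries correlated, over 9980 genes, at 0.45 between untreated and SPHINX31, at 0.17 between untreated and combination, at 0.09 and 0.01 between combination and the single treatments, and at -0.57 and -0.49 between indisulam and untreated or SPHINX31. Since not every pair was positive and no label ties the numbers, the main fit held no replicate block. The untreated, SPHINX31 and indisulam libraries did share a deviation, with the indisulam numbers in reverse, which that fit leaves in the spread. The source of this deviation was not tested. With the replicate block 6 members were called for combination against SPHINX31 and 0 in either comparison of SPHINX31. The exchanged block, with the replicate numbers of the indisulam libraries swapped, was chosen after seeing the data. Depth limited the value of SEC16B, with 6 to 34 counts per library.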
